A study of Mus musculus with 6 samples.

Results

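The 10 genes described here mark cytotoxic and T lymphocytes, and were read from a count table of 56941 genes measured in mouse lung isolates. They are Klrb1c, Ncr1, Nkg7, Gzma, Gzmb, Prf1, Ccl5, Il7r, Cd3e and Cd3g, found by matching Ensembl identifiers to mouse symbols. They were chosen from the same comparison that is described below, as natural killer genes against T cell genes that differed in opposite directions between the groups. Their differences are therefore given as a description: no p-value is given for them, and the numbers of them past a threshold support nothing. That contrast held for part of the set: the ranges of Ncr1 and Cd3e overlapped between the groups, while the other 8 genes did not overlap.

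RNA was sequenced from cells purified from lungs with magnetic beads as endothelial cells, depleted of dead cells and held in endothelial medium with serum. The 3 FL libraries have the genotype FUNDC1-FLOX, and the 3 EC-KO libraries have the genotype FUNDC1-KO, which their titles mark as an endothelial deletion. The promoter that drives the deletion, the age and strain of the mice, the antibody on the beads and the time in medium are named in none of the sources. Titles carry the abbreviation PAECs, whereas the protocols describe lungs. No label states that libraries came from separate animals, and every p-value below reflects just how far these libraries vary, which may be technical. Depth was 26.7 M to 34.3 M counts per library. Fundc1, the targeted gene, was at 25.1 to 32.0 CPM in FL (CPM gives counts scaled by TMM to one common library total, so that libraries can be compared) and at 12.8 to 18.2 CPM in EC-KO.

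Natural killer cells kill target cells without prior sensitisation. They read a balance of activating and inhibitory surface receptors and release granules that hold perforin and granzymes, the same machinery that cytotoxic T cells use. T cells recognise antigen through the T cell receptor, whose signal is carried by the CD3 chains. Naive and memory T cells and innate lymphoid cells depend on interleukin 7, and natural killer cells on interleukin 15. The lung holds many lymphocytes in its capillaries and tissue. A lung isolate enriched for endothelium can therefore contain their RNA, and in bulk libraries fewer cells of a type and less RNA per cell cannot be told apart.

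The cytotoxic genes were higher in EC-KO than in FL by 0.90 to 1.41 on the log2 scale, while the EC-KO values of the natural killer receptor Ncr1 fell inside the FL range. Il7r and Cd3g were lower. All 10 genes passed the filter on low counts. An adjusted p under 0.05 was reached by 8 of them, against 27.1% of 18562 tested genes. In the higher direction it was reached by 6, where 13.5% of tested genes were called, and by 2 in the lower direction, where 13.5% were called. Groups did not overlap for 6 genes that were higher (22.6% of tested genes) and 2 that were lower (22.8%). Since the genes were chosen on this contrast, nothing is read from these counts. The number called higher was 2 with FL 2 or FL 3 left out and 1 with EC-KO 1 left out. The number called lower was 1 when FL 1, FL 3 or EC-KO 3 was left out and 0 when FL 2 was.

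**Figure D1:**
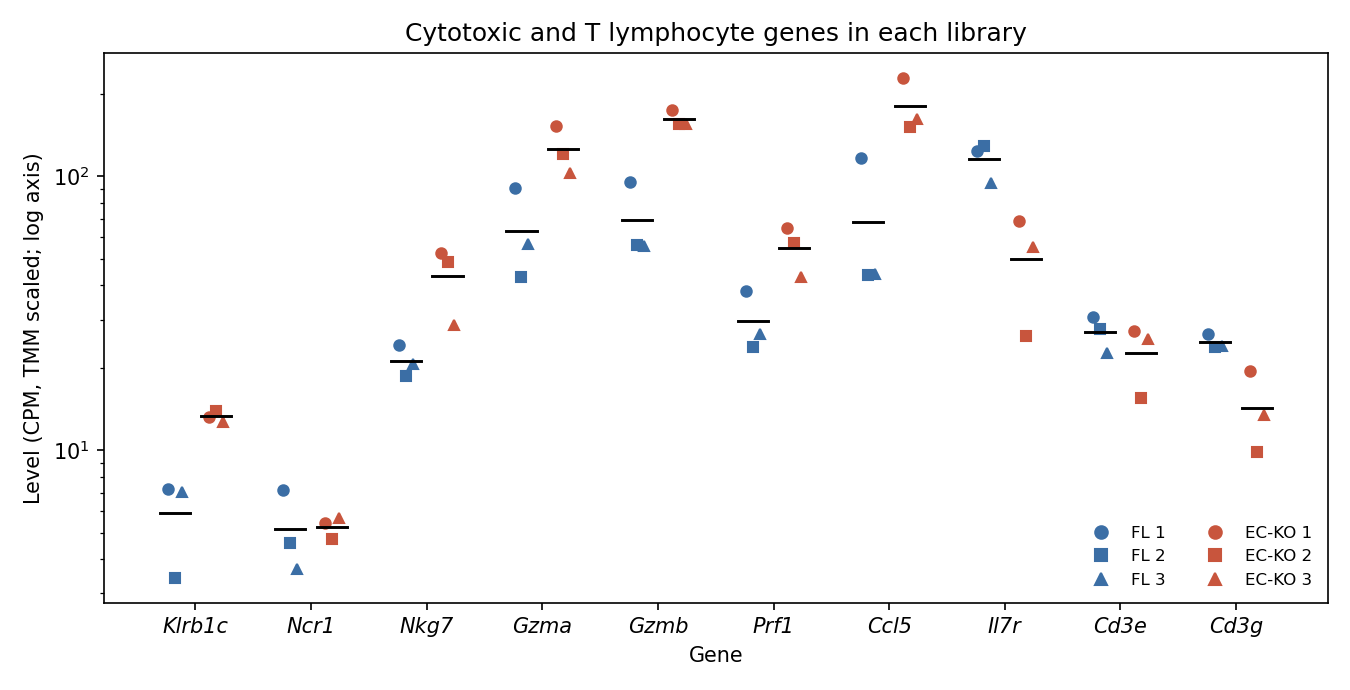
Level of each gene (CPM with TMM scaling, log axis) in the 3 FL and 3 EC-KO libraries, with a bar at the mean of each group. Gzmb sits at 155 to 175 CPM in EC-KO, above all FL libraries, and Ncr1 at 3.68 to 7.13 CPM in FL and 4.74 to 5.63 CPM in EC-KO.

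Klrb1c encodes the NK1.1 antigen, an activating receptor of natural killer cells in several mouse strains. Its level was 7.20, 3.42 and 7.0 CPM for FL 1 to 3, against 13.2, 13.9 and 12.7 CPM for EC-KO 1 to 3. All EC-KO libraries were above all FL libraries and close to each other. Group means of 5.88 ± 2.13 CPM and 13.3 ± 0.593 CPM (SD, n = 3 in each) gave 1.18 ± 0.28 (SE) as the log2 fold change. An exon of Klrb1c overlaps the predicted gene Gm44511 on the same strand, so its count is uncertain.

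Ncr1 encodes NKp46, the receptor most often used to define natural killer cells across mouse strains. It was at 7.13, 4.58 and 3.68 CPM for FL 1 to 3, against 5.40, 4.74 and 5.63 CPM for EC-KO 1 to 3. The EC-KO libraries lay inside the FL range. Group means were 5.13 ± 1.78 CPM in FL and 5.25 ± 0.464 CPM in EC-KO (SD, n = 3 each), and the log2 fold change was 0.04 ± 0.28 (SE). Its sign turned without FL 2 (-0.04), FL 3 (-0.19) or EC-KO 3 (-0.03).

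The ratio of Klrb1c to Ncr1, with each level divided by gene length, was 0.526, 0.388 and 0.989 for FL 1 to 3, against 1.27, 1.53 and 1.17 for EC-KO 1 to 3. A ratio within a library does not depend on how libraries are scaled. Its group means were 0.634 ± 0.315 and 1.32 ± 0.181 (SD, n = 3 each), and the groups did not overlap. Both genes were chosen on this contrast and the Klrb1c count is uncertain, so the ratio is a description. Klrd1, which encodes CD94, the partner chain of the NKG2 receptors, was also within the FL range or just below it. It was at 16.1, 11.3 and 9.65 CPM across FL and 13.5, 9.75 and 8.72 CPM across EC-KO (log2 fold change -0.21 ± 0.25 SE, edgeR adjusted p = 0.568).

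The granule genes were higher in every EC-KO library than in any FL library. Gzmb encodes granzyme B, a serine protease that starts apoptosis in the target cell. It was at 95.2, 56.0 and 55.9 CPM for FL 1 to 3, against 175, 156 and 155 CPM for EC-KO 1 to 3, with a log2 fold change of 1.23 ± 0.23 (SE). The EC-KO values were close together, and FL 1 was the highest of the FL values.

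Gzma encodes granzyme A, a protease with trypsin-like specificity. Its level was 90.8, 43.0 and 56.5 CPM for FL 1 to 3, against 153, 121 and 103 CPM for EC-KO 1 to 3, a log2 fold change of 0.99 ± 0.28 (SE). FL 1 lay nearer to EC-KO 3 than to FL 2. Prf1 encodes perforin, which forms the pores through which granzymes act. It was at 38.2, 23.8 and 26.6 CPM for FL 1 to 3, against 64.7, 57.2 and 43.0 CPM for EC-KO 1 to 3 (0.90 ± 0.23 SE). FL 1 and EC-KO 3 were the nearest libraries of the groups.

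Nkg7 encodes a granule membrane protein of natural killer and cytotoxic T cells. It was at 24.2, 18.6 and 20.6 CPM for FL 1 to 3, against 52.5, 48.5 and 28.5 CPM for EC-KO 1 to 3. EC-KO 3 was closer to the FL libraries than to the other 2 EC-KO libraries. The log2 fold change was 1.03 ± 0.24 (SE). Within libraries Gzmb was higher relative to Prf1 in EC-KO: the ratio of their per-length levels was 3.77 to 4.48 in FL and 4.86 to 6.49 in EC-KO. The ratio of Gzmb to Gzma overlapped between groups, with 0.693 to 0.913 in FL and 0.799 to 1.05 in EC-KO.

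Ccl5 encodes a chemokine that memory and cytotoxic lymphocytes store and release, and that other cells make under inflammatory signals. Its level was 117, 43.5 and 43.9 CPM for FL 1 to 3, against 229, 151 and 162 CPM for EC-KO 1 to 3. FL 1 was over the other FL libraries by more than they differed from each other, and still under all EC-KO libraries. Group means were 68.2 ± 42.4 CPM in FL and 181 ± 42.1 CPM in EC-KO (SD, n = 3 each), and the log2 fold change was 1.41 ± 0.38 (SE). Without FL 1 it was 2.01, and without FL 3 it was 1.13.

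FL 1 was the highest FL library for all 7 genes above, from Klrb1c to Ccl5. That library also had epithelial markers 0.74 above the FL mean on the log2 scale and neutrophil markers below it, at -0.83. The part of these cells in the levels of the cytotoxic genes was not tested.

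Il7r encodes the alpha chain of the interleukin 7 receptor, carried by naive and memory T cells and by innate lymphoid cells. It was at 123, 129 and 94.4 CPM for FL 1 to 3, against 68.5, 26.1 and 55.4 CPM for EC-KO 1 to 3. All EC-KO libraries were below all FL libraries, and EC-KO 2 was the lowest. The SD was 18.7 CPM in FL and 21.7 CPM in EC-KO (n = 3 each), and the log2 fold change was -1.21 ± 0.32 (SE), which was -0.93 without EC-KO 2.

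Cd3g and Cd3e encode the gamma and epsilon chains of CD3, which sit together in the T cell receptor complex. Cd3g was at 26.5, 23.8 and 24.0 CPM for FL 1 to 3, against 19.4, 9.88 and 13.4 CPM for EC-KO 1 to 3 (log2 fold change -0.80 ± 0.24 SE). EC-KO 1 was the EC-KO library nearest to FL, and the groups did not overlap. Cd3e was at 30.6, 27.8 and 22.7 CPM for FL 1 to 3, against 27.2, 15.5 and 25.5 CPM for EC-KO 1 to 3 (-0.25 ± 0.23 SE). EC-KO 1 and EC-KO 3 lay inside the FL range, and EC-KO 2 alone lay below it. Cd3e overlaps the predicted gene Gm48719 on the opposite strand, and no source gives the strand setting of the counting.

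EC-KO 2 was the lowest library for Il7r, Cd3e and Cd3g. It was also the lowest for markers of leukocytes in general, which averaged -1.09 relative to FL there, -0.26 in EC-KO 1 and -0.46 in EC-KO 3. Set against Ptprc, which encodes the leukocyte surface protein CD45, Cd3e no longer set this library apart. The ratio of Cd3e to Ptprc per length was 0.154, 0.122 and 0.143 for FL 1 to 3, against 0.158, 0.158 and 0.137 for EC-KO 1 to 3. No such ratio was computed for Il7r or Cd3g. The part of leukocyte content in the levels of these genes was not tested.

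Ratios among Cd3g, Cd3e and Il7r are given as a description, since these genes were chosen on the contrast. The ratio of Cd3g to Cd3e per length was 1.08, 1.07 and 1.32 across FL and 0.891, 0.796 and 0.656 across EC-KO, so the groups did not overlap. That of Il7r to Cd3e was 3.53, 4.07 and 3.64 across FL and 2.21, 1.47 and 1.90 across EC-KO, again without overlap. Of the 11 ratios computed, 5 did not overlap between the groups, and they were looked at after the levels had been seen. Ncr1 relative to Cd3e did overlap, with 0.430 to 0.617 in FL and 0.526 to 0.810 in EC-KO.

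**Figure D2:**
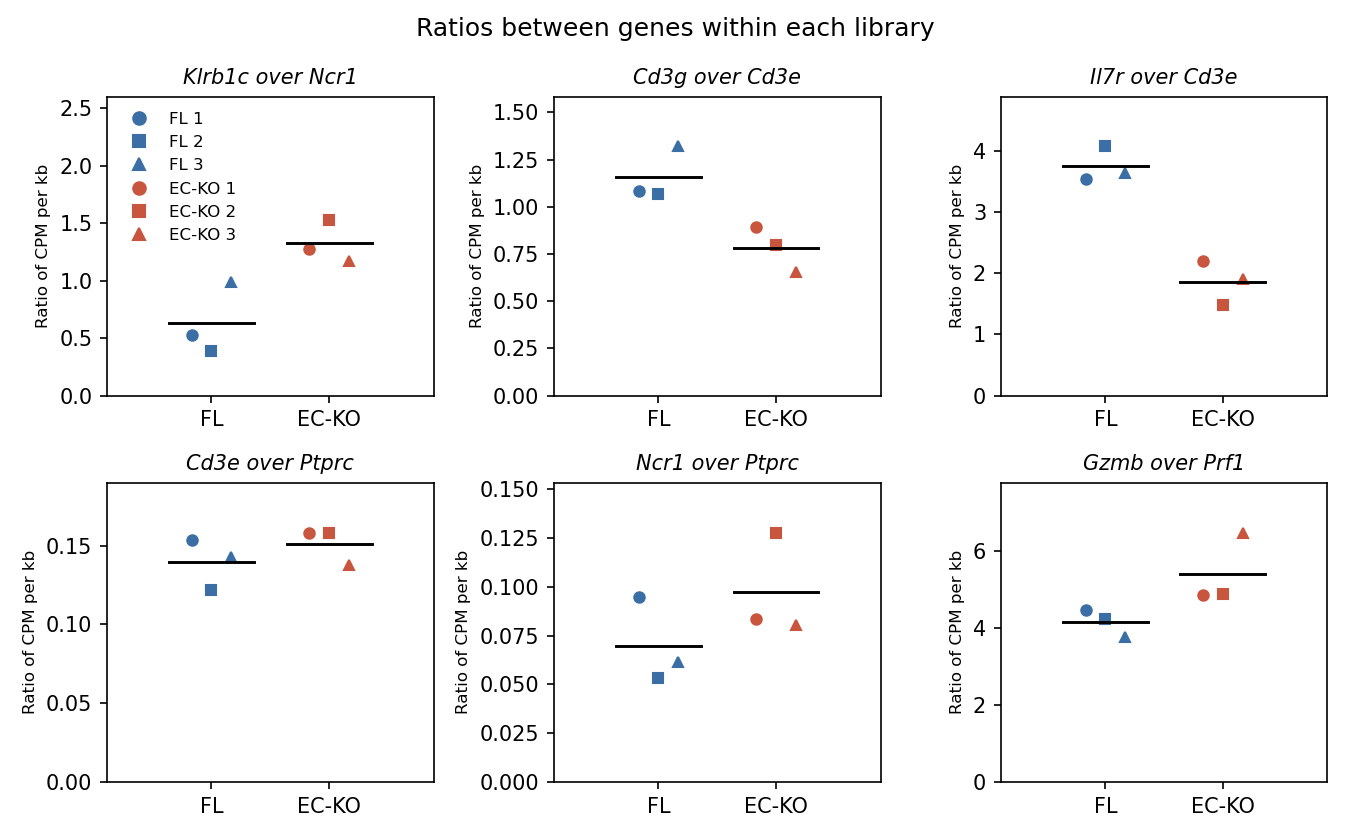
Ratios of per-length levels (CPM per kb) between pairs of genes within each library, with a bar at each group mean. Klrb1c over Ncr1, Cd3g over Cd3e, Il7r over Cd3e and Gzmb over Prf1 do not overlap between FL and EC-KO, whereas Cd3e over Ptprc and Ncr1 over Ptprc do.

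On a per-length scale, which allows levels of different genes to be compared, Ccl5 was the most abundant of the 10 in FL (71.1 CPM per kb), followed by Gzma (63.0) and Gzmb (48.1). The ranges of these 3 genes overlapped in FL. Il7r (24.8) and Nkg7 (23.1) came next and overlapped each other, then Prf1 (11.4). Cd3g (7.58) and Cd3e (6.63) overlapped each other and lay above Ncr1 (3.33) and Klrb1c (1.98), which overlapped each other too.

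In EC-KO the order was Ccl5 (188 CPM per kb), Gzma (125), Gzmb (113), Nkg7 (47.3), Prf1 (21.3) and Il7r (10.7). Ccl5 did not overlap Gzma there, while Gzma and Gzmb overlapped. The last 4 were Cd3e (5.57), Klrb1c (4.48), Cd3g (4.35) and Ncr1 (3.41), each of which overlapped its neighbour in this order. Il7r thus overlapped Nkg7 in FL and lay below both Nkg7 and Prf1 in EC-KO.

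Several of the genes lie beside related genes, given here in GRCm38 coordinates. Klrb1c (chromosome 6, 128778485 to 128789215, minus strand) belongs to the natural killer gene complex, with Klrb1b starting 37.1 kb away. Gzmb (chromosome 14, 56258838 to 56262260, minus strand) is next to Gzmc, whose start is 27.6 kb away, and 177 kb from Mcpt8, a basophil protease gene. Cd3g (chromosome 9, 44969572 to 44980431, minus strand) and Cd3e (44998740 to 45009627, minus strand) flank Cd3d, which starts 1.36 kb from Cd3g on the plus strand.

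The RefSeq promoter table held 9 of the 10 genes. The 250 bases before the RefSeq start are printed for the 6 whose window overlaps the GENCODE gene by few bases or none. They set granule and receptor genes that natural killer cells use beside the CD3 genes (GRCm38.p6, 5′ to 3′ on the gene's strand, for Ncr1 the first of 2 start sites). For Gzmb the RefSeq start lies upstream of the GENCODE gene. A short stretch after the RefSeq start matched no GENCODE transcript of the gene for Gzmb, Prf1, Cd3e and Il7r. Capitals mark the T-box core GTGTGA, read by factors such as T-bet and EOMES, and the RUNX core TGTGGT, each searched on both strands (ACCACA and TCACAC are their reverse complements).
Ncr1 (chr7:4337465-4337714, plus strand): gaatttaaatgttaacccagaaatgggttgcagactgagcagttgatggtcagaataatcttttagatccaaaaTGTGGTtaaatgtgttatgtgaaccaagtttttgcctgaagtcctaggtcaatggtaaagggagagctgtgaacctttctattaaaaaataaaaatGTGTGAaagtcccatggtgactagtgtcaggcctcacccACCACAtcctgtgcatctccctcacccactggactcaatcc
Gzma (chr13:113100982-113101231, minus strand): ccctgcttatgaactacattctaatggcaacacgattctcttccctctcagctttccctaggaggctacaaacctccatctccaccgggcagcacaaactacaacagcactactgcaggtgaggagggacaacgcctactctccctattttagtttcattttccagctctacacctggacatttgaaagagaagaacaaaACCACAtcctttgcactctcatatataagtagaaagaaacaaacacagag
Gzmb (chr14:56262335-56262584, minus strand): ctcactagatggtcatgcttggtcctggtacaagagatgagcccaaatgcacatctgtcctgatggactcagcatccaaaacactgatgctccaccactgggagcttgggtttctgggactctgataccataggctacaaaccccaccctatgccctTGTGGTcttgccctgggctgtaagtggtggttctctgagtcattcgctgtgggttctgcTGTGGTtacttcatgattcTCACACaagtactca
Prf1 (chr10:61297586-61297835, plus strand): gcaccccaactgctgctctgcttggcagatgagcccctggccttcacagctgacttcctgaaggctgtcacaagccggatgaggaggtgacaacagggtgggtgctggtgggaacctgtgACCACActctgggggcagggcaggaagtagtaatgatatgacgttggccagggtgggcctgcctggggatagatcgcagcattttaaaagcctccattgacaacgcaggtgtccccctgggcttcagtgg
Cd3e (chr9:45009612-45009861, minus strand): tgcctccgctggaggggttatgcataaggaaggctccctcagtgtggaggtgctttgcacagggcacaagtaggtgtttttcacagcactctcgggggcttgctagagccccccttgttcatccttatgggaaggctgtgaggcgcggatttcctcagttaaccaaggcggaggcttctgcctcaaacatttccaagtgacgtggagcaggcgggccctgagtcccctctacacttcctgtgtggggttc
Cd3g (chr9:44980432-44980681, minus strand): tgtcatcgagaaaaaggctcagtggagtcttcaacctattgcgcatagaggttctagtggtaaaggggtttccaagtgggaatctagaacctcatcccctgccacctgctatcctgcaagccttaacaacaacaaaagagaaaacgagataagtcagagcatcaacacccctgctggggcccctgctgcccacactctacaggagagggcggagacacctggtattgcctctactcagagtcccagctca
The RUNX core was found in the windows of Klrb1c, Ncr1, Nkg7, Gzma, Gzmb and Prf1, which are 6 of the 9 genes. It was not found in those of Il7r, Cd3e or Cd3g. Among all 32851 promoter windows of this length 14.0% held it. The T-box core was found in the windows of Ncr1, Nkg7, Gzmb and Il7r, and in 12.3% of all windows. The core CTTTGA, read by TCF and LEF factors, was found in the windows of 0 of the 9 genes and in 13.8% of all windows. Windows end at RefSeq starts, which can differ from GENCODE starts. The windows of Klrb1c and Il7r lie wholly inside the GENCODE gene. That of Nkg7 lies partly inside it, its T-box match included. The matches there are therefore not upstream of the GENCODE start, apart from the RUNX match of Nkg7. A match of such short letters is a description and no site of binding.

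The genes above were chosen by their direction, so wider lists are described next. These were also written with earlier results of these data known, and so are no independent check. Beside each list count stands the share over all tested genes, 13.5% called higher and 13.5% called lower. A count near that share says nothing about its list. Other receptors of natural killer cells come first. Of 24 such genes outside the set, 7 rose, 2 fell and 15 did not pass the test (edgeR, adjusted over all tested genes), with a median log2 fold change of 0.74, against 0.03 over all tested genes. Klri2, a killer lectin-like receptor, went from 14.97, 6.02 and 9.04 CPM across FL to 54.1, 45.4 and 39.1 CPM across EC-KO (2.21 ± 0.31 SE, edgeR adjusted p = 0.00189). Klrc2, which encodes the activating receptor NKG2C, rose too (1.03, edgeR adjusted p = 0.0124), but was not called without FL 2 (0.0586) or FL 3 (0.0571). The number of rises was 3 with FL 2 or EC-KO 1 left out and 1 with FL 3 left out.

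The receptors that fell were Cd226 (-0.90) and Cd244a (-0.92), which T cells and myeloid cells also carry. Cd226 lost its call without FL 1 (edgeR adjusted p 0.0989), FL 2 (p 0.0822), EC-KO 1 (p 0.122) and EC-KO 3 (p 0.0822). Cd244a lost it without FL 1 (p 0.114), FL 2 (p 0.0996), EC-KO 1 (p 0.132) and EC-KO 2 (p 0.0583), and with scaling by upper quartile or library size. No fall was called without FL 1 or without FL 2 (0 each), and 1 was called without EC-KO 1 or without EC-KO 3. Without EC-KO 1 it was another gene of the list, and without EC-KO 3 it was Cd244a. Genes of the Klra, Klrc and Klri families have close copies, and the sources do not say how reads fitting several copies were counted, so their counts are uncertain.

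Among adaptors and kinases used by these receptors 1 of 10 rose, 4 fell and 5 did not pass the test (median -0.67). Tyrobp, which encodes the adaptor DAP12, fell from 111 to 167 CPM in FL to 35.5 to 44.8 CPM in EC-KO (-1.84, edgeR adjusted p = 0.000625), and Fcer1g fell by 1.21 on the log2 scale. Myeloid cells express both at high level, and all 8 macrophage markers fell in the same libraries (median -2.13). The part of myeloid cells in the falls of Tyrobp and Fcer1g was not tested. Txk, a kinase of T and natural killer cells, rose (1.06) but lost its call without FL 2 (adjusted p 0.129), FL 3 (p 0.145), EC-KO 1 (p 0.135) and EC-KO 3 (p 0.103).

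The wider granule machinery comes next. Outside the 4 granule genes of the set, 14 of 18 listed genes had enough counts, of which 1 rose, 3 fell and 10 did not pass the test (median -0.19). Gzmc, the neighbour of Gzmb, rose from 1.10 to 3.15 CPM in FL to 5.29 to 8.0 CPM in EC-KO (1.69, edgeR adjusted p = 0.0120), and was not called without EC-KO 1 (0.0513). Gzmk, which encodes granzyme K, was at 0.92 (adjusted p = 0.0685) and was called without FL 1 (0.0425).

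Srgn, the proteoglycan core of granules in many blood cells, fell (-0.89), and so did Rab27a (-0.95), a GTPase that brings granules to the membrane. The third to fall was Ctsc (-0.83), the protease that activates granzymes. Srgn was not called without FL 2 or FL 3 (adjusted p = 0.0514 and 0.0532), nor Ctsc without FL 1 (p 0.0501), FL 2 (p 0.0699), EC-KO 1 (p 0.0744) and EC-KO 3 (p 0.0535). These 3 genes are also expressed in myeloid cells, whose markers fell. The part of myeloid cells in these 3 falls was not tested. With FL 2 left out 1 gene of the list fell, and the number of rises was 0 with EC-KO 1 left out, 2 with FL 1 or EC-KO 2 left out and 3 in DESeq2.

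Among effector cytokines and receptors of Ccl5, 3 of 11 rose, 3 fell and 5 did not pass the test (median -0.13). Xcl1, a chemokine made by natural killer and activated CD8 T cells, went from 2.35, 1.22 and 1.77 CPM to 9.64, 7.37 and 6.77 CPM (2.16 ± 0.30 SE, edgeR adjusted p = 0.00174). Fasl, the death ligand of cytotoxic lymphocytes, went from 13.04, 8.16 and 7.77 CPM to 29.4, 21.4 and 29.0 CPM (1.46 ± 0.25 SE, adjusted p = 0.00384). For each of these genes all EC-KO libraries were above all FL libraries. Ccr1 (-2.56) and Ccr3 (-3.49), receptors for Ccl5 on myeloid cells and eosinophils, fell.

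Among transcription factors of lymphocytes, 4 of 19 rose, 2 fell and 13 did not pass the test (median 0.23). The rises include Tbx21 and Eomes, the T-box factors that define natural killer cells and effector T cells. Tbx21 went from 9.70, 9.04 and 8.22 CPM across FL to 29.2, 20.5 and 22.2 CPM across EC-KO (1.42 ± 0.20 SE, edgeR adjusted p = 0.00171). Eomes went from 25.0, 11.9 and 11.6 CPM to 61.3, 45.0 and 46.4 CPM (1.66 ± 0.31 SE, adjusted p = 0.00591). Neither overlapped between groups. Nfil3 (-0.95) and Prdm1 (-0.93), which act in lymphocytes and in many other cell types, fell. With FL 2, FL 3, EC-KO 1 or else EC-KO 3 left out, 2 factors rose. Runx3, chosen after its values were seen, was at 27.5 to 45.6 CPM in FL and 47.6 to 88.5 CPM in EC-KO.

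Of 13 matched genes of the T cell receptor complex and coreceptors, 3 rose, 0 fell and 10 did not pass the test in edgeR, with a median of 0.57. At an unadjusted p under 0.05 5 were higher and 0 lower, and DESeq2 called 4 higher and 0 lower. The genes that rose were Cd28 (1.58), the main costimulatory receptor, Cd5 (0.87) and, named after its values were seen, Trdc (0.73), the constant region of the delta chain. Cd28 went from 40.8, 32.7 and 23.6 CPM across FL to 122, 61.4 and 107 CPM across EC-KO (edgeR adjusted p = 0.00532). Cd5 lost its call without FL 2 (adjusted p 0.103), FL 3 (p 0.106), EC-KO 1 (p 0.102) and EC-KO 3 (p 0.0584).

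The third CD3 chain, Cd3d, was at 16.6, 14.4 and 13.1 CPM across FL and at 23.5, 10.5 and 15.6 CPM across EC-KO (0.17 ± 0.28 SE, edgeR adjusted p = 0.679), and at -0.17 without EC-KO 1. Trac, the constant region of the alpha chain, was at 22.6 to 38.0 CPM in FL and 28.4 to 49.7 CPM in EC-KO (0.57, adjusted p = 0.146), and was called higher without EC-KO 2 (0.76, adjusted p = 0.0293). Cd4 (-0.29, adjusted p = 0.379) and Cd8a (0.13, adjusted p = 0.745) did not pass the test, and Cd8a was at -0.06 without FL 3 and at -0.09 without EC-KO 1. With EC-KO 2 left out 7 genes rose, with FL 1 left out 2 did, and with any other library left out 1 did.

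**Figure D3:**
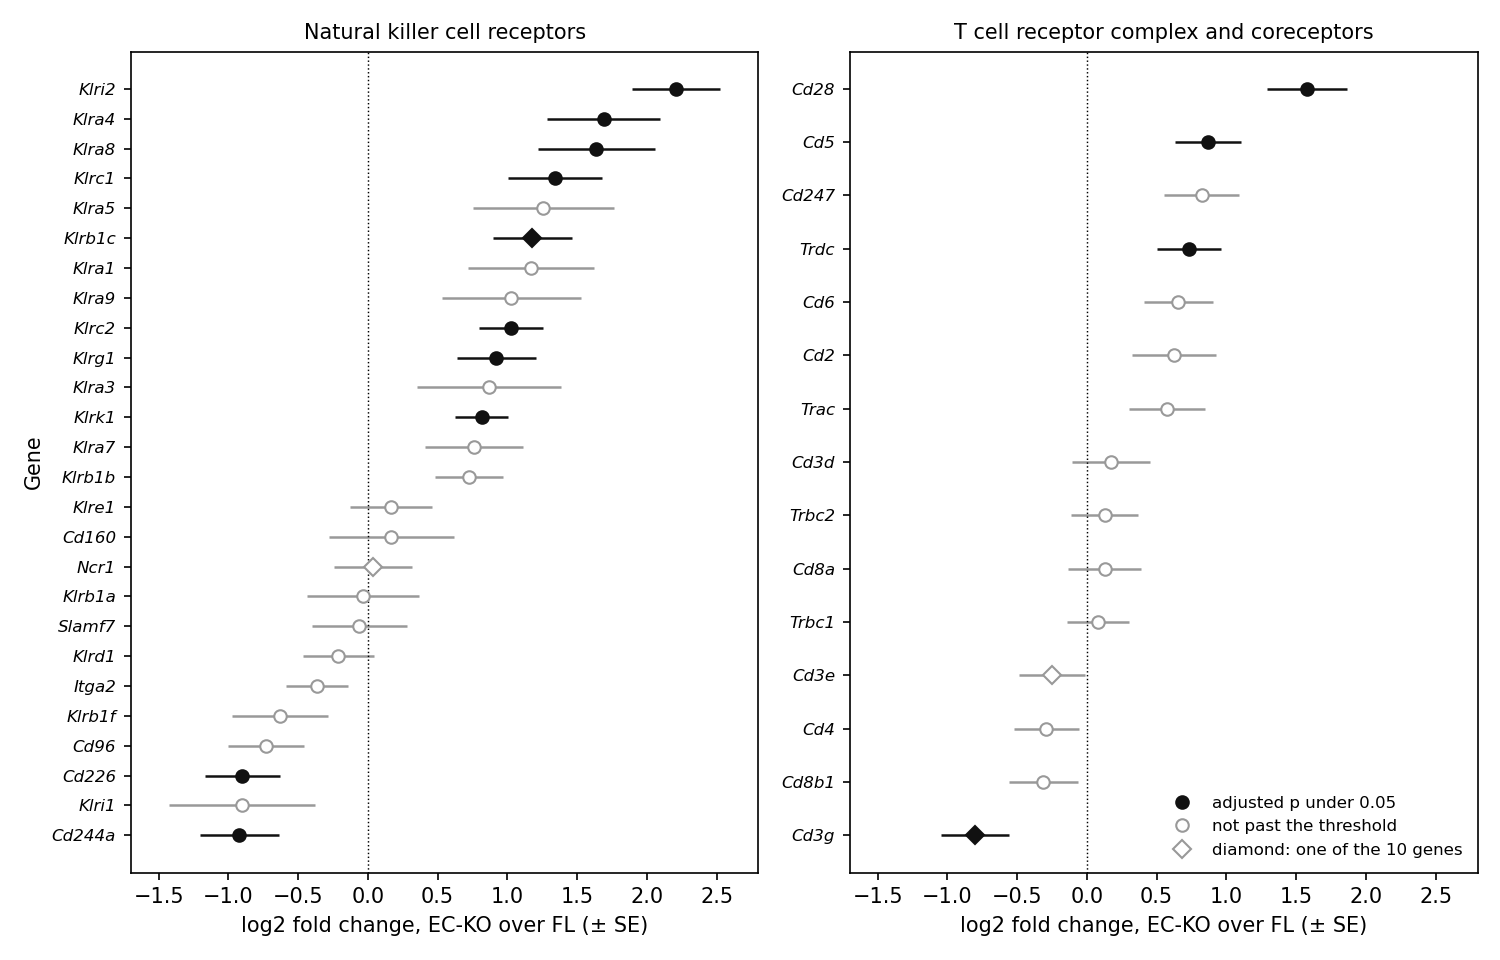
Log2 fold changes (EC-KO over FL, ± SE) of 26 natural killer receptor genes and 15 genes of the T cell receptor complex, with filled points for an adjusted p under 0.05 and diamonds for the genes of the set. Cd3g is the lowest of its list at -0.80, while Klri2 leads the other list at 2.21 and Ncr1 sits at 0.04.

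The set was chosen for a contrast between natural killer and T cell genes, and the same contrast was computed for the wider lists. The mean log2 CPM of Klrb1c and Ncr1 minus that of Cd3e and Cd3g was -1.98, -2.68 and -2.19 for FL 1 to 3 and -1.43, -0.60 and -1.12 for EC-KO 1 to 3, a difference of 1.23 between group means. For the natural killer receptors and T cell receptor genes outside the set, the same quantity was -1.82, -2.14 and -1.90 across FL and -2.02, -1.59 and -2.05 across EC-KO. Group means were -1.95 ± 0.167 and -1.89 ± 0.261 (SD, n = 3 each), a difference of 0.07 that was smaller than the spread between libraries. With 3 libraries against 3, an exact two-sided permutation test cannot go below 0.1, and none was run.

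Of 14 signalling genes downstream of the T cell receptor 2 rose, 4 fell and 8 did not pass the test (median 0.29). The share over all tested genes was 13.5% in each direction. Sit1, an adaptor that dampens the receptor, rose (1.05, edgeR adjusted p = 0.0235) and lost its call without FL 2 (p 0.0919), FL 3 (p 0.0771) and EC-KO 1 (p 0.0983). Lcp2 (-0.99), an adaptor that myeloid cells and platelets also use, and Themis (-1.04), a T cell protein, fell, the latter not without FL 2 (0.1003).

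Rises among signalling genes numbered 5 with EC-KO 2 left out, 1 with FL 2 left out and 0 with FL 3 or EC-KO 1 left out. Falls numbered 1 with FL 2 left out and 2 with FL 1, FL 3 or EC-KO 3 left out.

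Of 16 genes of T cell subsets and memory 3 were higher, 3 were lower and 10 did not pass the test (median 0.12). Here too the share over all tested genes was 13.5% in each direction. Lag3, an inhibitory receptor of activated lymphocytes, went from 3.60, 3.67 and 4.05 CPM across FL to 9.93, 17.3 and 9.59 CPM across EC-KO (1.70, edgeR adjusted p = 0.00306). Cxcr3, a chemokine receptor of effector T and natural killer cells, rose by 1.54 (adjusted p = 0.00937). Itgae, the integrin chain CD103, which dendritic cells also carry, fell (-1.58, adjusted p = 0.00674). With EC-KO 2 left out 6 genes of this list rose.

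The interleukin 7 and 15 axis had 3 of 14 genes higher, 3 lower and 8 that did not pass the test (median 0.16), Il7r left out. Il7, the ligand of Il7r, was low and fell from 3.41, 3.36 and 4.20 CPM across FL to 1.70, 2.01 and 1.79 CPM across EC-KO (-0.995 ± 0.26 SE, edgeR adjusted p = 0.0211). It lost its call without FL 2 (adjusted p 0.0533), FL 3 (p 0.0854), EC-KO 1 (p 0.0753) and EC-KO 3 (p 0.0617). Il15 fell from 17.2, 27.9 and 29.7 CPM to 4.68, 4.36 and 5.88 CPM (-2.33 ± 0.25 SE, adjusted p = 0.000688).

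Il2rb, the receptor chain shared by interleukins 2 and 15, went the other way, from 221, 125 and 112 CPM to 631, 433 and 583 CPM (1.85 ± 0.28 SE, edgeR adjusted p = 0.00259). Every EC-KO library was above every FL library. Cish, a feedback inhibitor of cytokine receptors, rose (0.64) and lost its call with any FL library left out (p 0.0524 for FL 1, 0.0832 for FL 2 and 0.0969 for FL 3). With FL 2 or FL 3 left out 1 gene of this axis rose. Bcl2, a survival gene downstream of interleukin 7 in lymphocytes, fell (-0.90).

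Ligands that natural killer receptors read on other cells showed 3 rises and 2 falls among 15 tested genes, while 10 did not pass the test (median 0.14). The rises include Cdh1 (2.43), the epithelial cadherin that binds KLRG1, and Nectin2 (0.96), which is bound by CD226. Nectin2 was not called without FL 2 (adjusted p = 0.0804) or FL 3 (0.0813). Cd48 (-1.07), the ligand of CD244, and Cadm1 (-0.87) fell. The number of rises was 1 without FL 2 and 1 without FL 3.

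Over the 10 lists, counting each gene once, 30 of 150 tested genes outside the set rose and 26 fell, with a median of 0.17. Over all tested genes 2515 rose and 2514 fell (13.5% each). With upper-quartile scaling 36 list genes rose and 24 fell (2915 and 2167 over all genes), and with library size alone 36 and 23 (2971 and 2192). The number of rises in the lists was 44 with EC-KO 2 left out, 16 with EC-KO 1, 14 with FL 2 and 12 with FL 3 left out. Falls numbered 17 with FL 2 left out and 21 with FL 3 left out.

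Genes were also compared with the mean profile of Klrb1c and Ncr1 over the 6 libraries, by root mean square difference of centred log2 CPM. The nearest were Ogfr (0.05), Stk39 (0.07) and Mms22l (0.09) among 15068 named genes outside the set. Nearness to that mean is not nearness to either gene. The log2 fold change was 0.69 for Ogfr, 1.18 for Klrb1c and 0.04 for Ncr1. Those nearest to the mean profile of Cd3e and Cd3g were Prkcq (0.07), which encodes the protein kinase C theta of T cells, Itgb7 (0.07), an integrin chain of leukocytes, and Parp1 (0.08).

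Markers of other cells moved in the same libraries, relative to the FL mean of log2 CPM. Macrophage markers averaged -2.41, -1.94 and -2.03 in EC-KO 1, 2 and 3, with summed levels of 870 to 1285 CPM in FL and 210 to 287 CPM in EC-KO. Neutrophil markers averaged -2.56 to -2.29 in EC-KO, and 5 of 5 fell (median -2.17), among them Cxcr2 (-4.02). B cell markers had 0 of 6 called by edgeR or DESeq2 and 0 at an unadjusted p under 0.05, summing to 323 to 549 CPM in FL and to 695, 199 and 673 CPM in EC-KO 1, 2 and 3. They were lowest in EC-KO 2 (-1.23), as Il7r, Cd3e and Cd3g were, and 3 of them rose with that library left out.

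Of the 7 markers of group 2 innate lymphoid cells, which also carry the interleukin 7 receptor, 0 rose and 2 fell, Arg1 (-2.09) and Il17rb (-1.10). Il17rb lost its call without FL 1 (adjusted p 0.0814), FL 2 (p 0.116), FL 3 (p 0.0620), EC-KO 2 (p 0.0551) and EC-KO 3 (p 0.0937), and with scaling by upper quartile or library size. Their defining receptor gene Il1rl1 was at 0.11 (edgeR adjusted p = 0.745), and at -0.03 without FL 3 and -0.01 without EC-KO 1. With FL 1 left out 1 marker of this list rose, and 1 fell with any library but EC-KO 1 left out. Summed levels of that list were 78.9 to 112 CPM in FL and 88.7 to 108 CPM in EC-KO.

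Mast cell and basophil markers had 1 of 6 higher and 2 lower, with a median of 0.41. They averaged 0.28, 0.65 and -0.0036 relative to FL in EC-KO 1, 2 and 3. Their sum went the other way, from 695 to 982 CPM in FL to 182 to 299.9 CPM in EC-KO, most of it from Kit, which endothelial cells also express. Mcpt8, the basophil gene near Gzmb, rose from 0.367 to 0.569 CPM in FL to 3.22 to 7.34 CPM in EC-KO (3.43 ± 0.40 SE, edgeR adjusted p = 0.000891). Of 6 general leukocyte markers 3 fell and 0 rose, and their sum was 2528 to 3184 CPM in FL and 1496 to 2681 CPM in EC-KO. With FL 2, FL 3 or EC-KO 3 left out 1 of them fell. Endothelial markers fell in 5 of 6 cases (median -1.13), but in 1 with FL 3 or EC-KO 1 left out and in 2 with FL 2 or EC-KO 3 left out. Epithelial markers rose in 6 of 6 (median 2.95) and fibroblast markers in 4 of 5 (median 1.30). The part of these cells in the levels of the lymphocyte genes was not tested.

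**Figure D4:**
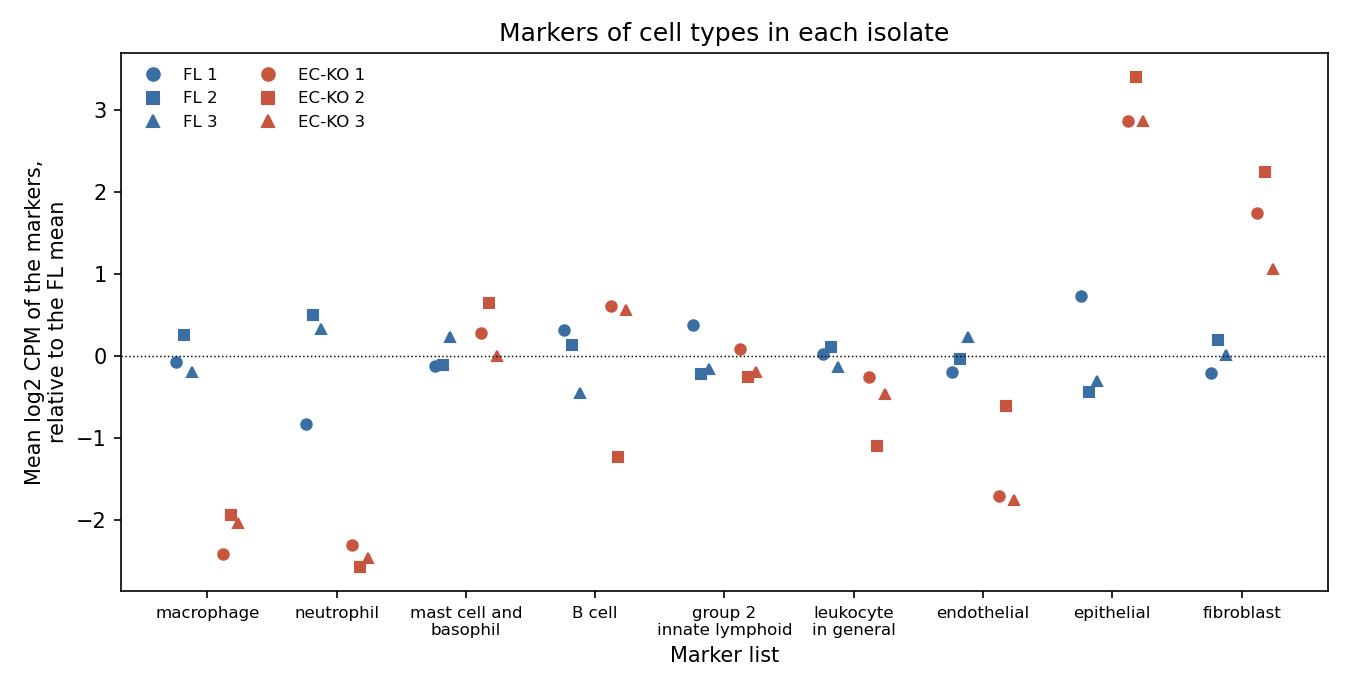
Mean log2 CPM of each marker list relative to its FL mean, by library. Macrophage markers lie at -1.94 or lower in all EC-KO libraries, epithelial markers lie 2.86 to 3.39 above, and EC-KO 2 stands apart for B cell (-1.23) and general leukocyte (-1.09) markers.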

How the data were processed

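RNA of 3 FL and 3 EC-KO libraries was measured. The authors deposited raw counts per Ensembl gene, in the layout of featureCounts per the file headers. STAR 2.7.10b, featureCounts 2.0.3 and the build mm10 are listed in the submitters' processing notes, without roles. The annotation release is not given in the sources used here, nor is the strand setting. Start positions in the table differ from GRCm38 annotation for all 10 genes, so its build is unresolved, and GENCODE M21 (GRCm38) coordinates are printed. A further 2 per-sample columns match no sample and were not used. Symbols were found for 51948 of 56941 identifiers.

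Counts were analysed with edgeR 4.0.16 (R 4.3.3): filterByExpr kept 18562 of 33412 genes with any count, libraries were scaled by TMM, and EC-KO was compared with FL by the robust quasi-likelihood F test with no covariate (two-sided), with Benjamini-Hochberg adjustment over all tested genes and a threshold of 0.05. SE was derived from the log2 fold change and F (their ratio, F under a root), and so carries no evidence beyond the p-value. Log2 CPM used a prior count of 2. Depth per library limits precision, and the biological coefficient of variation was 25.5%.

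The 10 genes and all lists (10 of gene function, 9 of markers) were chosen with earlier results of these data known. Named genes were the 10, of each list the called genes with the smallest p (at most 2 in each direction) or the most abundant if none was called, a fixed group of lymphocyte and control genes, and the 3 genes most like the mean profile of each pair. Others are said to be chosen after seeing values, and some genes that this rule names are not reported here. Alternatives were other scaling, filters, DESeq2 1.42.0, limma-voom (limma 3.58.1), fitting without robust dispersion, a replicate block and leaving out each library. Promoters are RefSeq's (GRCm38.p6). Figures used Python 3.11.15 and matplotlib 3.10.9.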

Additional observations from a re-analysis of the deposited data

How the results depend on the processing

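Leaving out each library in turn moved counts most. Over all genes, 1169 to 3009 were called higher and 1314 to 3731 lower, against 2515 and 2514 with all libraries. Of the 10 genes, 1 to 6 were called higher and 0 to 2 lower, and of the list genes outside them 12 to 44 were called higher and 17 to 29 lower. Of the 10 genes, 1 was called lower (2 with TMM) with upper-quartile scaling and 1 with library size alone, Cd3g being lost (-0.72 and -0.70). The natural killer minus T cell difference was 1.00 to 1.42 for the 4 genes of the set and -0.083 to 0.15 outside it, reversing without FL 2 (-0.026) and EC-KO 2 (-0.083). Of single genes, signs turned for Ncr1 (-0.19 to 0.31 over the left-out libraries), Cd3d (-0.17 to 0.38), Cd8a (-0.087 to 0.38) and Il1rl1 (-0.027 to 0.29), none of which was called with all libraries. The cause was not tested.

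The numbers 1 to 3 are shared by the groups, but the labels do not say that they pair libraries, and deviations of same-numbered libraries correlated at 0.0494, 0.0697 and -0.18 across genes, which are not independent. With the replicate block, 1900 genes were called higher and 1948 lower, the counts of the 10 genes were 6 and 2, and the list counts 29 and 22; Cd226 (0.0763), Cd244a (0.0802), Cish (0.0532), Il17rb (0.0602), Il7 (0.0588) and Themis (0.0546) lost their call. Not every library correlated best with its own number. Upper-quartile scaling and library size alone also ended the calls of Cd244a (0.0585 and 0.0686) and Il17rb (0.0512 and 0.0598), library size alone that of Rac2, a leukocyte marker (0.0626), and Ccl5 was not called without the filter. DESeq2 and limma-voom called Gzmk (0.0478 and 0.0482). In the block fit 0 natural killer receptors outside the set fell.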
